A study of Mus musculus with 5 samples.

Results

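Hoxa2, Hoxa3, Hoxa4 and Hoxa5 are 4 neighbouring genes at the anterior end of the Hoxa cluster on mouse chromosome 6, and their loci were examined for the histone mark H3K27me3. Each locus took in the gene (GENCODE M21, GRCm38) and 5 kb to either side, and the loci merge into 1 region of 60.92 kb at chr6:52157417-52218336. This region held 45 of the 22757 broad peaks of H3K27me3 replicate 1 called against input, 46 of the 24881 peaks of the same library called against IgG, and 16 of the 33379 peaks of replicate 2 called against input. ChIP-seq, the sequencing of DNA bound to immunoprecipitated chromatin, profiled the mesenchyme of molars taken from C57BL/6 wildtype mice at postnatal day 3, after the dental epithelium had been taken away. The libraries were 2 of H3K27me3, 2 of input (chromatin that was not immunoprecipitated) and 1 made with nonspecific IgG. All came from the same kind of tissue, and there was no second genotype or treatment. The labels do not say whether the replicates were separate animals or pools, so each SD is the spread between 2 libraries.

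H3K27me3 is placed by Polycomb repressive complex 2 through its methyltransferase Ezh2 and is found over developmental genes that are kept silent. Hox genes encode homeodomain transcription factors that give cells their position along the body axis, and in each cluster the genes at the 3′ end are used most anteriorly. The neural crest of the first pharyngeal arch, which gives rise to the dental mesenchyme, is known for its lack of Hox expression. Hoxa2 sets the identity of the second arch, Hoxa3 is needed for the thymus and parathyroid, Hoxa4 takes part in patterning the neck vertebrae, and Hoxa5 acts in the cervicothoracic skeleton and the airways. RNA was not measured in these samples.

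The bases that lay in a peak of replicate 1 and in a peak of replicate 2, both called against input, fell into 7 stretches with 627 bp in all. These are shown because they are where the replicates met. They are given from the plus strand of GRCm38, while the 4 genes are transcribed from the minus strand, and capitals mark CpG dinucleotides. The shown part of stretch 3 is the central 300 of 332 bp.
Shared stretch 1, chr6:52163644-52163705: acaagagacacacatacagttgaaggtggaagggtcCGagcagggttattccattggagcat
Shared stretch 2, chr6:52165869-52165916: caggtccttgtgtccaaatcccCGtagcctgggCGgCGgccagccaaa
Shared stretch 3, chr6:52183132-52183431: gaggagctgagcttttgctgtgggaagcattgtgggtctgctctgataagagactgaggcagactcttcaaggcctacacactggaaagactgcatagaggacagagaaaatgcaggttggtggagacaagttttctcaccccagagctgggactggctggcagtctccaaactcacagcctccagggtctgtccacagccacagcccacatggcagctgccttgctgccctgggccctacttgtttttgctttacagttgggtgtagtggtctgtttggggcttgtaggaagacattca
Shared stretch 4, chr6:52186584-52186623: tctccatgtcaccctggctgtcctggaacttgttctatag
Shared stretch 5, chr6:52200022-52200070: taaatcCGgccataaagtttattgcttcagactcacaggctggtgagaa
Shared stretch 6, chr6:52211128-52211178: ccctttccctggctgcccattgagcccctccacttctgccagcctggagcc
Shared stretch 7, chr6:52216997-52217041: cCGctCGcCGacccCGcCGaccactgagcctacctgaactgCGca
Stretch 1 lay in the Hoxa2 intron and stretch 2 in an exon of the noncoding RNA Hoxaas2, 1038 bp from the Hoxa2 5′ end. Stretch 3 lay in an exon of the antisense gene Gm29430, 408 bp from the 5′ end of the short Hoxa3 transcript Hoxa3-202. Stretch 4 was intronic, stretch 5 lay in a noncoding exon of Hoxa3, stretch 6 in a Hoxa3 intron and stretch 7 in an exon of Hoxa7. Their CpG content was uneven, with 6 CpGs in the 45 bp of stretch 7 and 0 in the 300 bp shown of stretch 3. All 7 also touched peaks called against IgG, with 599 bp common to the 3 lists.

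The region was densely marked in each list relative to the genome. Peaks covered 15.2% of it in replicate 1 against input, 15.7% in replicate 1 against IgG and 9.81% in replicate 2, compared with 0.110%, 0.123% and 0.238% of chromosomes 1 to 19, X and Y, gaps included. The region's covered share was therefore 138, 128 and 41.2 times that of the genome. Over the 2 input-called lists the covered share was 12.5% ± 3.83 (SD, n = 2) and the number of peaks was 30.5 ± 20.5 (SD, n = 2). The number of peaks differed 2.81-fold between the replicates and the covered length 1.55-fold, both higher in replicate 1. The median peak was 155 bp long in replicate 1 and 295.5 bp in replicate 2.

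Replicate 2 was the deeper library, with 49947919 H3K27me3 tags after duplicate removal against 30369351 in replicate 1. The tags were 74 bp and 49 bp long. Depth, tag length and replicate cannot be told apart. The control libraries kept 23688420 tags (input 1), 24440452 (IgG) and 51681224 (input 2).

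**Figure D1:**
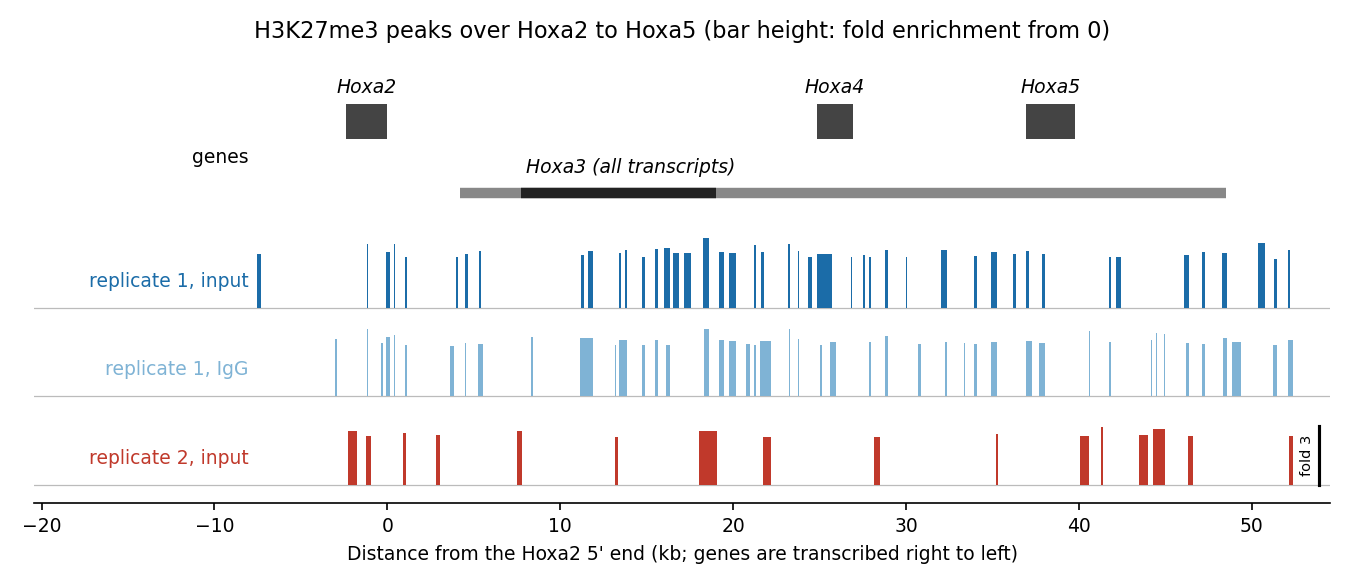
Broad peaks over Hoxa2 to Hoxa5 in the 3 lists, against distance from the Hoxa2 5′ end in kb; bar width is peak length and bar height is fold enrichment from 0. The dark part of the Hoxa3 bar is the transcript Hoxa3-202; replicate 1 has 45 and 46 mostly short peaks along the genes and replicate 2 has 16 longer ones.

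Single peaks were weak. The fold enrichment, the ratio of tag pileup in a peak to the control background with 1 added to both, ranged from 2.48 to 3.56 in replicate 1 against input, from 2.57 to 3.45 with IgG as control and from 2.42 to 2.97 in replicate 2. The medians were 2.79, 2.79 and 2.55, close to those of each whole list (2.63, 2.66 and 2.45). Mean pileups, the depth of overlapping tags after scaling, were 3.12 to 5.06 in replicate 1 against input and 6.00 to 7.67 in replicate 2. From pileup, peak length and fragment length, a peak held a median of 12.5 scaled tags in replicate 1 against input (3.12 to 67.1) and 28.8 in replicate 2 (9.94 to 103.3). No peak of the region had a q-value, the p-value adjusted over the genome, below 0.05. The deposited q-value was 1 for 45 of 45, 46 of 46 and 14 of 16 peaks, and over the whole lists 0, 0 and 4 peaks were below 0.05. Peaks were called on an unadjusted p-value cutoff of 0.005, so the values given here are densities of weak peaks.

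The peak of the region with the highest fold enrichment in replicate 1 against input was stretch 3, at 3.56, and the peak at the same place against IgG had 3.44. In replicate 2 a peak of 1052 bp, the longest in the region, contained it and ran over the Hoxa3-202 5′ end, with a fold enrichment of 2.73. The strongest replicate 2 peak reached 2.97 and lay between Hoxa5 and Hoxa6.

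Each of the 4 genes had a peak in its locus in every list. This holds for 25% of 21938 protein-coding genes in replicate 1 against input, 25.9% against IgG, 35.7% in replicate 2 and 15.7% in both replicates called against input. The median gene had a covered share of 0 in each list, and the 99th percentiles were 4.24%, 5.41% and 4.24%. The Hoxa3 locus contains the bodies of Hoxa4 and Hoxa5, so the 4 loci share peaks and are not independent.

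**Figure D2:**
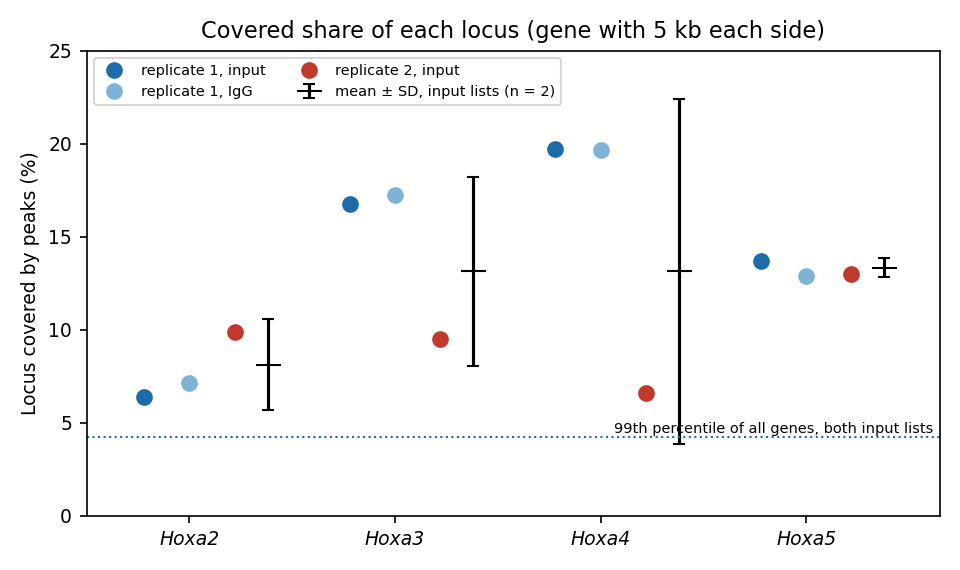
Share of each locus covered by peaks, in percent, for the 3 lists (points), with the mean and SD of the 2 input-called lists in black. All points lie above the dotted 99th percentile of all protein-coding genes in the input-called lists (4.24% in each), while Hoxa4 is 19.7% in replicate 1 and 6.59% in replicate 2.

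Hoxa2 (ENSMUSG00000014704.10, chr6:52162417-52164831) had 7 peaks in its locus in replicate 1 when input was the control, 8 with IgG as control, and 4 in replicate 2. The covered shares were 6.38%, 7.16% and 9.88%, a mean of 8.13% ± 2.47 (SD, n = 2) that ranked 106 among protein-coding genes. Hoxa2 was the member with a higher share in replicate 2 than in both replicate 1 lists by more than 1 percentage point. Within the gene body the covered share was 4.93%, 10.1% and 33.5%, the last made of 2 peaks that overlap coding exons. A peak crossed the Hoxa2 5′ end in both replicate 1 lists, and the nearest replicate 2 peak lay 908 bp away.

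Hoxa3 (ENSMUSG00000079560.13, chr6:52169062-52213336) is the longest member because its distal transcripts start beyond Hoxa5. Its locus held 43, 44 and 14 peaks, which covered 16.7%, 17.3% and 9.52% of it, a mean of 13.1% ± 5.10 (SD, n = 2). By the exons of Hoxa3 alone, 29 of 43, 30 of 44 and 8 of 14 lay in its introns, which contain exons of other genes. With the exons of every annotated gene counted, 20 of 45, 22 of 46 and 5 of 16 peaks of the whole region touched no exon. The gene has 4 annotated transcripts with separate 5′ ends, and the lists differed as to which of them was marked. Replicate 1 against input had a peak over the ends of Hoxa3-201, Hoxa3-203 and Hoxa3-204, and one 130 bp from Hoxa3-202. Replicate 2 had a peak over the end of Hoxa3-202 alone, and its nearest peaks to Hoxa3-201 and Hoxa3-203 were 1689 bp and 1910 bp away.

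Hoxa4 (ENSMUSG00000000942.10, chr6:52189671-52191753) differed most between replicates. Its locus held 12, 11 and 2 peaks that covered 19.7%, 19.7% and 6.59%, a mean of 13.1% ± 9.27 (SD, n = 2). In the gene body the covered share was 45.5% against input, where a single peak of 918 bp gave most of it, 24.1% against IgG and 0% in replicate 2.

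Hoxa5 (ENSMUSG00000038253.6, chr6:52201754-52204587) was the most even, with 8, 10 and 5 peaks and covered shares of 13.7%, 12.9% and 13.0%, a mean of 13.3% ± 0.512 (SD, n = 2). The even share hid a difference in position. The body was covered to 10.7% and 25.1% in the replicate 1 lists and to 0% in replicate 2, where 4 of the 5 peaks lay upstream of the gene and 1 past its 3′ end. The 5 kb upstream of Hoxa5 hold the Hoxa6 body, which had 2, 1 and 1 of the peaks. In replicate 2 that peak was 514 bp long, and one of 692 bp lay beyond the Hoxa6 5′ end, partly inside the locus. The covered share is therefore not that of Hoxa5 alone.

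The order of the members by covered share was Hoxa4, Hoxa3, Hoxa5 and Hoxa2 in both replicate 1 lists, and Hoxa5, Hoxa2, Hoxa3 and Hoxa4 in replicate 2. Hoxa3, Hoxa4 and Hoxa5 had means within 13.1% to 13.3%, far closer than the spread of Hoxa3 or Hoxa4 between libraries, so no order among them can be given.

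A peak within 1 kb of the 5′ end of the gene was found for Hoxa2, Hoxa3 and Hoxa4 in replicate 1 against input (3 of 4, background 3.87% of protein-coding genes), for all 4 against IgG (background 4.52%) and for Hoxa2 and Hoxa5 in replicate 2 (2 of 4, background 4.16%). Hoxa2 alone met this in both replicates called against input, where the background was 1.04%. With any annotated transcript counted, Hoxa3 also met it, through Hoxa3-202 and Hoxa3-204, beside a background of 1.52%.

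**Figure D3:**
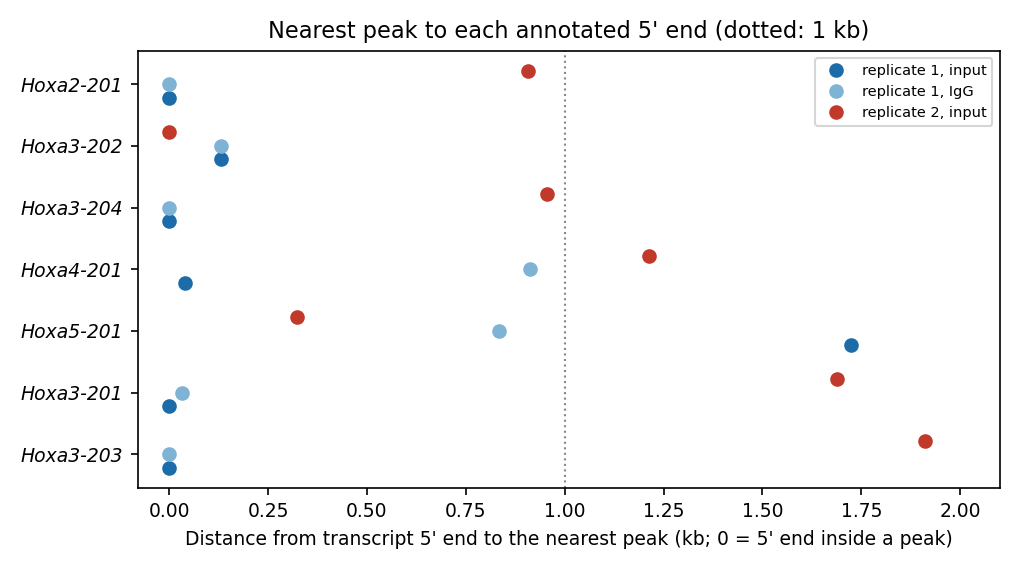
Distance in kb from each annotated 5′ end of the 4 genes to the nearest peak in each list, where 0 means the end lies inside a peak. Replicate 1 peaks sit on or next to the Hoxa2 and Hoxa3 ends, while replicate 2 is nearer at Hoxa3-202 and Hoxa5-201 and farther at Hoxa4-201 (1212 bp).

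RefSeq promoter sequences (GRCm38.p6) were matched for 3 of the 4 members, all but Hoxa4. The 250 bases before the annotated start of Hoxa2 and Hoxa5 are shown as a covered and an uncovered example in replicate 1. The bases before the Hoxa3 start, which are transcribed from another start, are not printed. They read 5′ to 3′ on the minus strand, the strand of the genes, with CpGs in capitals.
Hoxa2 upstream bases, chr6:52164832-52165081: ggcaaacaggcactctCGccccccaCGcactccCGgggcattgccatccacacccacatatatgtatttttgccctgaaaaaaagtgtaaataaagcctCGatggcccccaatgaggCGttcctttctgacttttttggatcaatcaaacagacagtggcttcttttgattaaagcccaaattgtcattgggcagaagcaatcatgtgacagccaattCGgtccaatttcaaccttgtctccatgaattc
Hoxa5 upstream bases, chr6:52204588-52204837: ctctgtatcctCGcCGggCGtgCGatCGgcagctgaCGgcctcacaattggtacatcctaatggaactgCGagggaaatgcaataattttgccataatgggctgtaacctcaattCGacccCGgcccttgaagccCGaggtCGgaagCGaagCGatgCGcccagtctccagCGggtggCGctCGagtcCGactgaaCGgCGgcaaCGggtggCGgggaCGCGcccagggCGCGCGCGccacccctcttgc
The Hoxa2 bases were covered over 141 bp in replicate 1 against input, 156 bp in replicate 1 against IgG and 0 bp in replicate 2. They hold 6 CpGs at an observed over expected ratio of 0.466 and 46.4% GC. The Hoxa5 bases hold 28 CpGs at a ratio of 1.11 and 63.6% GC, and were covered over 0 bp in each of the 3 lists. The Hoxa3 bases, with 18 CpGs at a ratio of 0.687 and 64.8% GC, were covered over 205 bp, 171 bp and 0 bp. In replicate 1 the window richest in CpGs was thus the uncovered one. None of the 3 was covered in replicate 2, and 3 windows in 1 library allow no conclusion on CpG content.

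Motifs were searched on both strands of the 300-base promoters. GAGAG was found in Hoxa2 and Hoxa3, and in 62.0% of all 32851 RefSeq promoters. A form of the joint HOX and PBX site, TGAT followed after 2 bases by AT, was found in Hoxa2 and in 8.85% of promoters. The CTCF core AGGGGGC (10.6%), CCATNTT of YY1 (16.1%) and the retinoic acid receptor element of 2 AGGTCA copies 5 bases apart (0.00913%) were not in these windows. None of the 5 motifs was in the shared stretches printed above.

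The CpG observed over expected ratio of the region, which allows for base composition, was lower inside peaks than between them in each list. It was 0.355 inside and 0.464 outside peaks in replicate 1 against input, 0.409 and 0.456 against IgG, and 0.425 and 0.451 in replicate 2. The difference was -0.0670 ± 0.0568 (SD, n = 2), little more than its spread. The plain density of CpGs was 2.13 per 100 bp inside and 2.90 outside peaks in replicate 1 against input, but 2.84 and 2.78 in replicate 2, so the density was not lower in each list. Over all peaks of the lists the ratio was lower still, at 0.247, 0.258 and 0.224.

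Along the region the mark was uneven. The 20.6 kb from the Hoxa3 3′ end to the Hoxa4 3′ end, all within the Hoxa3 body, had 19.5%, 21.4% and 9.74% covered. The stretch from the Hoxa2 5′ end to the Hoxa3 3′ end was the most alike across libraries, with 9.13%, 11.02% and 9.83%. The stretch from the Hoxa5 5′ end to the distal Hoxa3 5′ end also lies within the Hoxa3 body and holds Hoxa6. It had 12.6%, 10.01% and 23.7% covered, and was higher in replicate 2. The 5 kb past the 3′ end of Hoxa2 had 2.68%, 2.52% and 0%, the lowest of the 9 segments by mean.

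**Figure D4:**
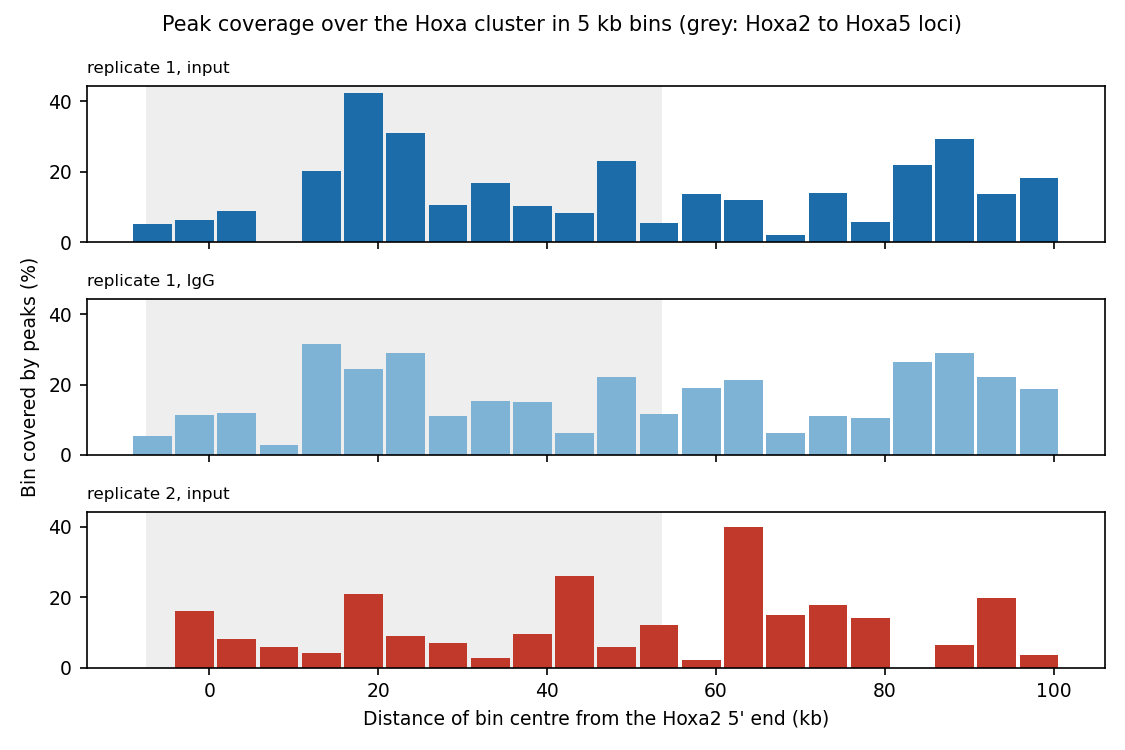
Share of each 5 kb bin of the Hoxa cluster covered by peaks in the 3 lists, in percent, against the distance of the bin centre from the Hoxa2 5′ end in kb; grey marks the Hoxa2 to Hoxa5 region and the bin before it and the last, partial bin are not drawn. Replicate 1 against input peaks at 42.2% near 18.3 kb, where replicate 2 has 21.04%, and the highest replicate 2 bin inside the grey area is 26.0% at 43.3 kb.

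Peaks no more than 5 kb apart joined into long domains. Against IgG 1 domain of 115 kb with 96 peaks took in the 5′ ends of all 4 genes and ran on into the posterior cluster. Against input replicate 1 had a domain of 6.58 kb at Hoxa2 and one of 101.6 kb over the 5′ ends of Hoxa3, Hoxa4 and Hoxa5. A further domain of 5.53 kb ended just inside the low edge of the region. In replicate 2 the region was broken into 5 domains of 0.346 to 28.0 kb, the longest of which lay mostly in the posterior cluster.

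The replicates shared few exact positions. Of the 45 replicate 1 peaks called against input, 7 were overlapped by at least 1 base of a replicate 2 peak (15.6%, 95% Wilson interval 7.75% to 28.8%), compared with 2.85% over the whole list. Of the 16 replicate 2 peaks 7 were overlapped (43.8%, 23.1% to 66.8%), compared with 1.90%. Within 1 kb, 25 of 45 and 12 of 16 had a neighbour in the other replicate, compared with 12.7% and 7.46% of the whole lists. The intervals cover counting error only and treat peaks as independent. Peaks were denser here than over the whole lists, and the part of density in these overlaps was not tested. With the control changed, 34 of 45 replicate 1 peaks called against input were overlapped by a peak of the same library against IgG (75.6%), compared with 51.0% over the whole list.

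The posterior Hoxa genes, Hoxa6 to Hoxa13, were taken without the bases of the anterior region. That region holds the whole Hoxa6 locus and part of the Hoxa7 locus. Of the anterior peaks, 10 of 45, 13 of 46 and 6 of 16 also lay in a posterior locus. What remained of the posterior loci was covered to 13.0%, 16.9% and 14.2%. The ratio of anterior to posterior covered share was 1.17 in replicate 1 and 0.690 in replicate 2, both against input, a mean of 0.929 ± 0.338 (SD, n = 2), and with IgG as control replicate 1 gave 0.930, so the direction turned with the control as well as with the library. The Hoxb cluster had 14.6% ± 1.55, Hoxd 9.84% ± 0.677 and Hoxc 8.68% ± 3.74 (SD, n = 2 each). Each of these means lay within about 1 SD of the anterior mean of 12.5% ± 3.83, so no difference from the other clusters stood clear of the spread between libraries.

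All 8 paralogs of groups 2 to 5 in the other clusters had a peak in every list, with a median covered share of 13.0%, against 0% over all genes. Neighbouring loci among these share bases, and Hoxd4 lies inside Hoxd3, so the 8 are not independent. Hoxb2, the paralog of Hoxa2, was highest at 21.1% ± 2.13 (SD, n = 2). Of 9 Hox cofactor genes, which encode the PBX, MEIS and PKNOX partners of Hox proteins, 5 had a peak in both replicates, and Meis1 was highest at 1.49%. Of 11 regulators of anterior Hox genes 5 did, led by the caudal gene Cdx2 at 5.76% ± 1.73 (SD, n = 2). In replicate 1 Cdx2 had 4.54% against input and 13.1% against IgG. Cyp26a1 and Cyp26c1, which degrade retinoic acid, had 7.63% and 8.78% in replicate 1 against input and 0% in replicate 2. Their loci overlap, so these shares are not independent. Of 13 dental mesenchyme markers 6 had a peak in both replicates and of 8 dental epithelium markers 2 did, beside 15.7% of all genes. Peaks are no measure of RNA, so these do not check the tissue.

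The genes outside the Hoxa cluster with the most similar covered shares across the 3 lists, by distance in percentage points, were Cryba2 (0.353) and Foxd1 (0.767) for Hoxa2, Hoxb9 (1.96) and Vax1 (2.95) for Hoxa3, Hoxb9 (5.79) and Emx2 (5.89) for Hoxa4, and Gm43517 (1.36) and Gm28230 (2.71) for Hoxa5. Hoxb9 belongs to the Hoxb cluster, and Gm28230 lies within Hoxd3 in the Hoxd cluster.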

How the data were processed

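H3K27me3, input and IgG libraries were grouped by the labels. The authors mapped reads to GRCm38 with BWA and kept unique matches. The authors called broad peaks with MACS 2.1.1.20160309 at a p-value cutoff of 0.005, keeping 1 tag per position and scaling the larger library to the smaller, without pooling. The deposited pileup is a signal after this scaling, the deposited fold enrichment is a ratio to local background with a pseudocount of 1, and the deposited p-value and q-value columns hold −log10 values. MACS applied fragment lengths of 46 bp and 71 bp, shorter than the tags, which narrows peaks. Covered shares, distances, overlaps of at least 1 base and base composition were computed with Python 3.11.15, NumPy 2.4.6, pandas 2.3.3, SciPy 1.17.1 and pysam 0.24.0 against GRCm38.p6 and GENCODE M21, and the code was checked on simulated peaks. With 2 libraries of 1 condition no test was made. Genes named besides the members were those in the region, the listed paralogs, cofactors, regulators and markers, and the 2 nearest genes by covered share for each member. The members and lists were chosen with earlier results of these data known.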

Additional observations from a re-analysis of the deposited data

How the results depend on the processing

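Of 77 alternative values for 10 results, 46 stayed near the reported value and 31 moved. Near meant within 1 SD for shares, ratios and the CpG difference, 1.5 times for counts and the Wilson interval for the overlap. With n = 2, leaving out 1 library cannot move a share, ratio or CpG difference by 1 SD. Those values were near by construction and are among the 46, so that count is no measure of stability. The CpG difference kept its sign wherever it was obtained. The anterior to posterior ratio of 0.929 moved by less than its SD but passed 1 in several settings. It was 1.12 with a flank of 1 kb, 1.22 for the gene body alone and 1.17 without replicate 2. With replicate 2 reduced to as many peaks as replicate 1 it was 1.06. Keeping fold enrichments from 3 upward, the mean peak number fell to 3.5, the covered share of the region to 1.15%, of Hoxa2 to 0.471%, Hoxa3 1.23%, Hoxa4 0.786% and Hoxa5 0%, with 0 promoters marked in both replicates and 0% of peaks overlapped, both fixed by replicate 2 having 0 such peaks in the region. With a −log10 p-value of 3 or higher these were 5 peaks, 2.95%, 2.62%, 2.76%, 0.290%, 2.12% and 0 promoters, with 20% of the replicate 1 peaks overlapped, and the CpG difference was -0.265. A flank of 1 kb gave 13.8% for Hoxa2 and 10.2% for Hoxa5, and the gene body alone 19.2% for Hoxa2, 22.8% for Hoxa4 and 5.36% for Hoxa5. Promoters marked in both replicates were 2 with IgG as control, 4 within 5 kb, 0 within 500 bp and 2 with any transcript. Leaving out 1 H3K27me3 library gave 16 to 45 peaks and 2 to 3 promoters. The overlapped share of replicate 1 peaks was 6.67% at an overlap of 50% of the peak, 37.8% within 500 bp and 55.6% within 1 kb. The cause was not tested.

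Reducing replicate 2 to 22757 peaks of lowest p-value left each anterior value as it was, but that number ends inside a tie. There were 20019 peaks above a −log10 p-value of 2.47 and 2793 at it, of which 2738 were taken by position. Of the 16 anterior peaks 15 were above the tie and 1 in it. Without tied peaks the region's covered share in replicate 2 was 9.46%, not 9.81%. The mean anterior to posterior ratio was then 1.04, or 1.06 with the tied peaks kept. In replicate 2 alone the ratio with the tied peaks kept was 0.946, where the posterior share was 10.4%.

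No value was obtained for the anterior to posterior ratio under either stricter threshold, for the CpG difference at a fold enrichment of 3, or for the overlap with 1 library left out. No paired analysis was possible because the results come from no test, and the anterior to posterior ratio is formed within each list. The depth at single peaks limits their position, and 2 libraries limit every SD.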
